A study of Mus musculus with 36 samples.

Results

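The cardiac myosin locus of the mouse, in which the heavy chain genes Myh6 and Myh7 lie in tandem, was followed through direct reprogramming of cardiac fibroblasts by counting open-chromatin reads over each of its regions. All regions that overlap chr14:55545000-55625000 of build mm9 were taken, which gave 54 of the 1393120 regions of the deposited table. Limits of Myh6 (about 55560800 to 55585800) and of Myh7 (about 55589500 to 55613500) are approximate, and no annotation of mm9 was used here, so exons and introns are not assigned. By their midpoints 14 regions fell in Myh6, 3 in the interval of 3.7 kb between the genes, 18 in Myh7, 13 in the flank below Myh6 and 6 in the flank beyond Myh7.

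The locus was chosen by measured values, because 2 of its regions, at 55571939 and 55575169, were among the largest rises from day 2 to day 21. Values of the day 2 and day 21 libraries, and changes that involve them, are therefore given as descriptions with no test. Tests are given for the libraries of days 3, 7 and 14 and for the fibroblasts, whose values are not part of that rise. Earlier results of these data were known when the locus was chosen, so the tests are not independent of the choice.

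The assay was ATAC-seq: a transposase inserts adapters into open chromatin, and sequenced insertions mark accessible DNA. Per the labels, all cells came from hearts of neonatal Cd-1 mice with the genotype alpha-MHC-GFP, a green fluorescent reporter under a Myh6 promoter. Explant cells sorted as Thy1+ and GFP-negative, largely fibroblasts, were infected with retroviruses. Of the 6 groups, 5 received Gata4, Mef2c and Tbx5 (GMT) with sb431542, which blocks TGF-beta receptors, and xav939, which blocks the Wnt pathway. Their GFP-positive cells were taken by sorting on day 2, 3, 7, 14 or 21. The control group, called fibroblasts below, carried dsRed, received no inhibitor and was sorted for dsRed at day 7. Each group had 3 libraries, which the labels call biological replicates. Whether GMT cells differ from fibroblasts through the factors, the inhibitors or the sort cannot be told apart, and only day 7 matches the control in time.

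Myh6 encodes the alpha heavy chain of cardiac myosin, the fast motor of atrial and adult mouse ventricular muscle. Myh7 encodes the slower beta chain, which prevails in the embryonic ventricle and in slow skeletal muscle. Both are transcribed from the same strand, Myh7 upstream of Myh6, and rodents shift from Myh7 to Myh6 in the ventricle around birth. GATA, MEF2 and T-box factors, the families of the delivered proteins, are known to act on the Myh6 promoter. In the RefSeq table of another build, GRCm38.p6, the order along the chromosome is Efs, Il25, Cmtm5, Myh6, Mhrt, Myh7 and Ngdn. Cmtm5 overlaps Myh6 there, and the noncoding RNA Mhrt overlaps Myh7.

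The promoter windows of both genes are shown because the results turn on the contrast between their starts. They are RefSeq sequences of GRCm38.p6, minus strand, each of 300 bases, mostly before the annotated start of that entry. Capitals mark E-boxes (CANNTG) and the TATA box (TATAAA). The Myh6 window is chr14:54966558-54966857 and the Myh7 window, the second of its 2 entries, is chr14:54994500-54994799, both in GRCm38.p6 and not placed on mm9 here.
Myh6 promoter: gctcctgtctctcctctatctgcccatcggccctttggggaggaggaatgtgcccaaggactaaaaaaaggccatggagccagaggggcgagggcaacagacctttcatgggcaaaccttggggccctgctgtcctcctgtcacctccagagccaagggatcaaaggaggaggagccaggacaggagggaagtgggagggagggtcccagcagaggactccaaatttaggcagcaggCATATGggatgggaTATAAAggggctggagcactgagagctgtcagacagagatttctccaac
Myh7 promoter: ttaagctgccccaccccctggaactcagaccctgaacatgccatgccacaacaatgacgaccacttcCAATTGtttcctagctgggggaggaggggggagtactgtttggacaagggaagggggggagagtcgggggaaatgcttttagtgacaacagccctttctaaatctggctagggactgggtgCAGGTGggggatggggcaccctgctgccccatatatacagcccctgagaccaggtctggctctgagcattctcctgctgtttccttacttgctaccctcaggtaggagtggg

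A search of both strands found 1 TATA box and 1 E-box in the Myh6 window, close together without overlap. It found 2 E-boxes and no TATAAA in the Myh7 window. Variants of the TATA box were not searched, and the Myh7 window does hold the letters tatata. Of 32851 promoter entries of the table, 13.6% held the TATA box and 72.3% an E-box. The letters of a GATA motif (AGATAA, in 11.2% of entries), a T-box motif (GGTGTGA, 3.98%), the MEF2 consensus (3.19%) and the CArG box bound by serum response factor (1.63%) were in neither window. That says only that these letters are not in these 300 bases.

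Each gene also hosts a microRNA in an intron, miR-208a in Myh6 and miR-208b in Myh7. Their mature 3p strands, from the same RefSeq build, are shown because they lie in the gene bodies whose accessibility is compared. Capitals mark the seed, bases 2 to 8.
mmu-miR-208a-3p: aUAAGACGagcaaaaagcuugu
mmu-miR-208b-3p: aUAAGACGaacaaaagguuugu
The seeds are identical and 19 of 22 positions match, the differences being G10A, A16G and C18U, counted from the 5′ end with the miR-208a base first. MicroRNA levels were not measured here, since the libraries hold genomic DNA.

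Library totals ran from 2293128 to 23217308 counts, and 219 to 10918 of them fell in the window per library. Levels below are in CPM, counts scaled to library size after trimmed means of log ratios. The 3 shallowest libraries were day 2 replicate 1, fibroblast replicate 3 and day 3 replicate 1, and fibroblast replicates 1 and 2 were closer to each other than any other pair of a group. In principal components of the kept regions, day 2 replicate 1 and day 3 replicate 1 stood apart on the second (-262 and -241, other libraries -33.4 to 81.4) and day 14 replicate 3 on the third (-234, others -80.3 to 105). Without the first pair together, the counts of called regions below were 4, 14 and 16 over fibroblasts at days 3, 7 and 14 and 7 for day 14 over day 3, as with them. A filter on low counts kept 28 of the 54 regions for testing. The 26 left out were 200 to 1315 bases wide and averaged at most 1.12 CPM in any group. A region that is low in fibroblasts passes that filter through the groups where it is high, so the share of kept regions that were higher is partly set by the filter. In Myh7, 3 of 18 regions were kept, against 12 of 14 in Myh6.

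**Figure D1:**
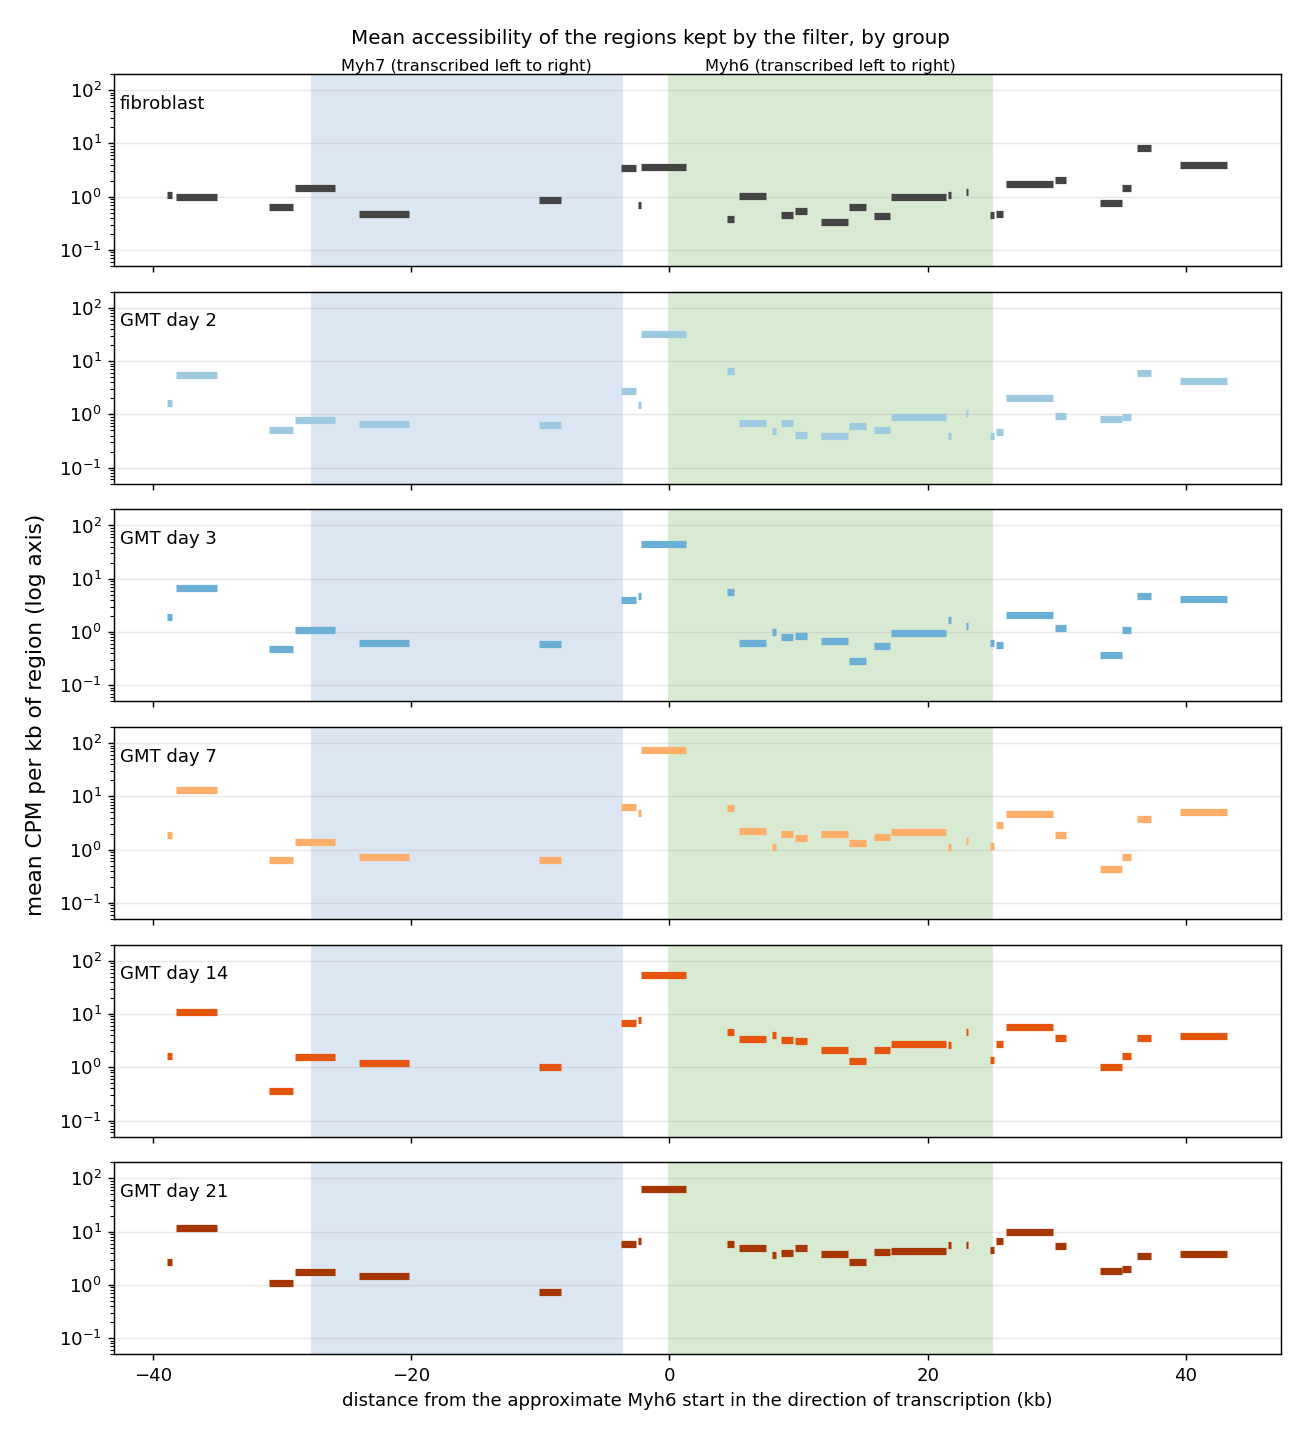
Mean accessibility of the 28 regions kept by the filter, one panel per group (fibroblast at the top, then GMT days 2 to 21). Each bar spans a region at its mean CPM per kb (log axis) by distance from the approximate Myh6 start, with Myh7 shaded blue and Myh6 green. The region over the Myh6 start stands at 3.58 CPM per kb in fibroblasts and at 32.2 or more in every GMT group. Most of the green body lifts from day 7 on, while the region 4.46 kb into it is higher from day 2. A region without counts in a group is not drawn there.

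The start of Myh6 was open from the first GMT time point. The region at chr14:55584482-55587987, 3505 bases wide, lies over it and reaches into the interval between the genes. It held 13.2, 14.3 and 10.1 CPM in the fibroblast libraries, and 77.2, 115 and 147 CPM at day 2, 83.9, 201 and 190 CPM at day 3, 279, 244 and 260 CPM at day 7, 225, 229 and 116 CPM at day 14, and 228, 161 and 277 CPM at day 21. Every GMT library lay above every fibroblast library, and the lowest GMT libraries were day 2 replicate 1 and day 3 replicate 1.

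At day 3 the level was 159 ± 64.9 CPM against 12.6 ± 2.21 CPM in fibroblasts (SD, n = 3 each), a fitted log2 fold change of 3.65 (SE 0.41, edgeR quasi-likelihood adjusted p 2.24e-10). At day 7 it was 261 ± 17.7 CPM, a log2 fold change of 4.36 over the same fibroblasts (SE 0.42, edgeR adjusted p 1.40e-12), and at day 14 it was 190 ± 64.0 CPM, a log2 fold change of 3.91 (SE 0.41, edgeR adjusted p 4.54e-11). By mean CPM it ranked 7428th of 144810 kept regions in fibroblasts, 24th at day 2, 10th at day 3, 7th at day 7, 11th at day 14 and 8th at day 21. Among GMT days no step passed the test. Day 7 over day 3 gave a log2 fold change of 0.72 (SE 0.36, edgeR adjusted p 0.780), with all 3 day 7 libraries above all 3 of day 3, and day 14 over day 7 gave -0.45 (SE 0.36, edgeR adjusted p 0.805).

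GMT cells were sorted on GFP driven by a Myh6 promoter, whose activity is tied to this very sequence, while control cells were not, so the sort and the reprogramming cannot be told apart here. A reporter of this kind carries Myh6 promoter DNA, and reads from the reporter and from the native start are counted together. In a bulk library a larger share of cells with an open region and wider opening in each cell cannot be told apart either.

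A pair of smaller regions near the start were also higher at day 3. Both are so low in fibroblasts that they can have passed the low-count filter only through GMT libraries. The direction of their calls was therefore set by the filter. The region at chr14:55580793-55581337, 4.46 kb into Myh6, held 3, 0 and 1 counts in the fibroblast libraries, while GMT libraries lay between 1.66 and 4.87 CPM at every time. Its mean was 3.01 ± 0.600 CPM at day 3 against 0.211 ± 0.188 CPM in fibroblasts (SD, n = 3 each; log2 fold change 3.64, SE 0.60, edgeR adjusted p 3.49e-06). Later means were 3.25 ± 1.53 CPM at day 7, 2.50 ± 0.795 CPM at day 14 and 3.19 ± 0.813 CPM at day 21. Day 14 over day 3 gave a log2 fold change of -0.17 (SE 0.36, edgeR adjusted p 0.913). In the interval, chr14:55588024-55588264 held 1.15 ± 0.417 CPM at day 3 against 0.168 ± 0.147 CPM in fibroblasts (log2 fold change 2.25, SE 0.71, edgeR adjusted p 0.0148). At day 2 it held 1, 10 and 0 counts in replicates 1, 2 and 3, so its early level rests on few reads. The day 3 call was lost without fibroblast replicate 1 and without day 3 replicate 3 (edgeR adjusted p 0.0698 and 0.0597).

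The third region of the interval, chr14:55588408-55589521, borders the end of Myh7. It had 0.640, 4.0 and 4.48 CPM at day 2, and 3.92, 3.70 and 3.96 CPM in fibroblasts. At day 7 it stood at 7.01 ± 1.16 CPM against 3.86 ± 0.141 CPM in fibroblasts (SD, n = 3 each; log2 fold change 0.86, SE 0.34, edgeR adjusted p 0.0478). At day 14 it stood at 7.57 ± 0.393 CPM (log2 fold change 0.98, SE 0.34, edgeR adjusted p 0.0311). Both calls are close to the threshold of 0.05 and were lost under several alternatives, among them DESeq2 (adjusted p 0.109 and 0.0658).

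On the far side of Myh7, 1 region behaved like the Myh6 start. It lies at chr14:55620825-55624024, 7.33 kb upstream of the approximate Myh7 start and 35.0 kb from the Myh6 start. It held 3.92, 3.01 and 2.52 CPM in fibroblasts, and 23.1, 13.6 and 15.7 CPM at day 2, 17.1, 20.6 and 26.4 CPM at day 3, 40.8, 40.5 and 42.7 CPM at day 7, 43.0, 38.2 and 25.4 CPM at day 14, and 47.0, 24.8 and 41.1 CPM at day 21. All GMT libraries were above all fibroblast libraries, and those of day 7 were above those of day 3.

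Against fibroblasts, at 3.15 ± 0.711 CPM, this upstream region stood at 21.4 ± 4.66 CPM at day 3 (SD, n = 3 each; log2 fold change 2.70, SE 0.36, edgeR adjusted p 2.92e-08). The log2 fold changes were 3.64 at day 7 and 3.43 at day 14 (SE 0.37 each, edgeR adjusted p 5.05e-12 and 6.03e-11). The step from day 3 to day 7 had a log2 fold change of 0.94 (SE 0.30, edgeR adjusted p 0.681). Over the 18 libraries its log2 CPM had a Pearson correlation of 0.963 with the region over the Myh6 start, the highest within the window, and the points share the contrast of GMT cells with fibroblasts and the library depths. Which gene this region serves cannot be read from the counts.

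**Figure D2:**
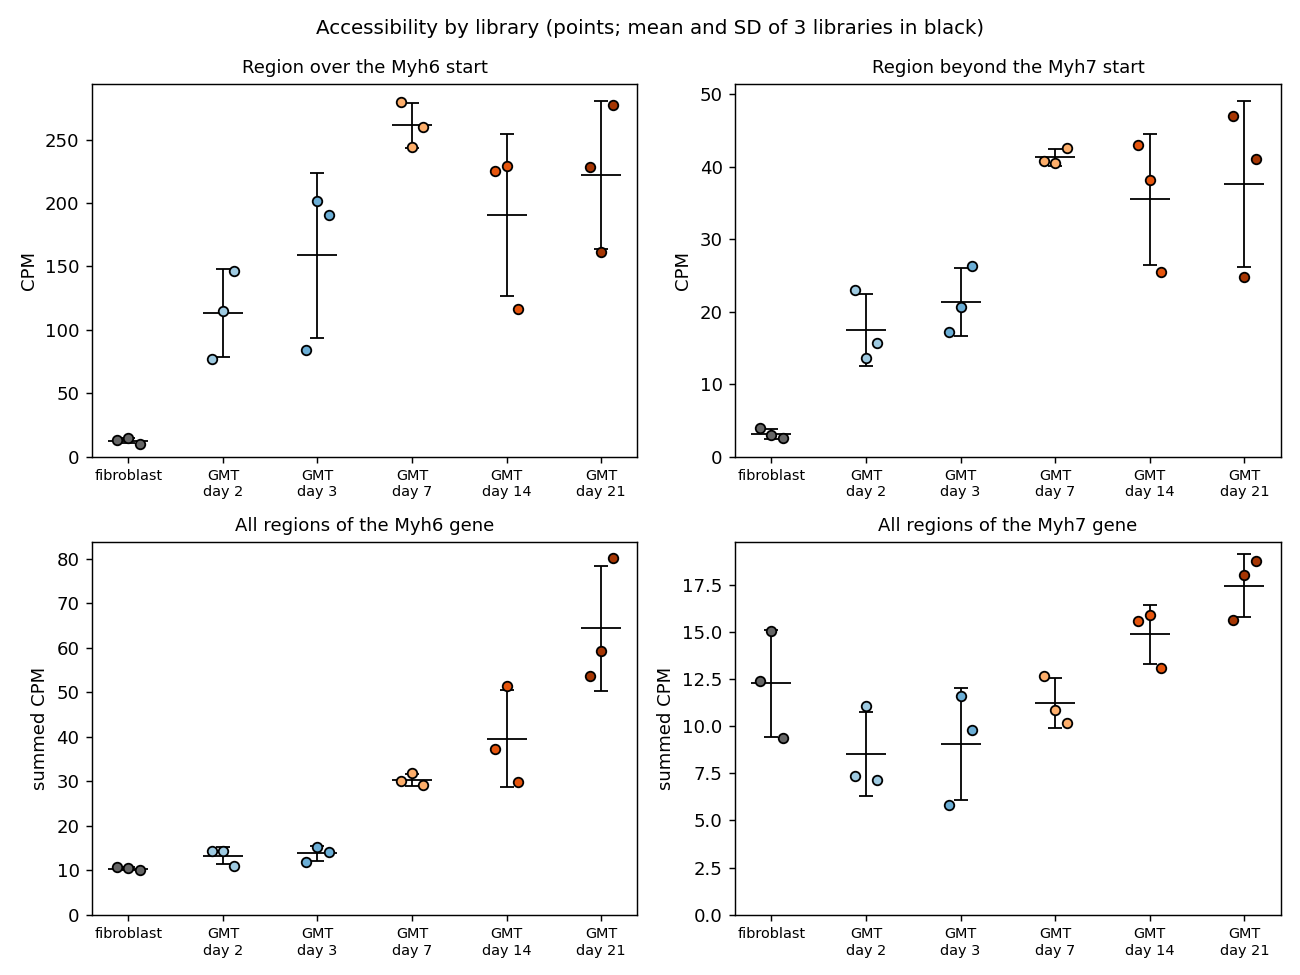
Accessibility by library (points, CPM from 0) with the mean and SD of 3 libraries in black, for fibroblasts and GMT days 2, 3, 7, 14 and 21. The region over the Myh6 start and the region beyond the Myh7 start are already high at day 2, summed Myh6 is within 10.1 to 15.3 CPM through day 3 and at 29.2 CPM or more from day 7, and summed Myh7 stays between 5.80 and 18.8 CPM.

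The body of Myh6 followed later. Summed over its 14 regions, it held 10.7, 10.4 and 10.1 CPM in fibroblasts, and 14.4, 14.4 and 11 CPM at day 2, 11.9, 15.3 and 14.1 CPM at day 3, 30.0, 31.9 and 29.2 CPM at day 7, 37.4, 51.5 and 29.9 CPM at day 14, and 53.6, 59.2 and 80.3 CPM at day 21. Group means were 10.4 ± 0.292, 13.3 ± 1.96, 13.8 ± 1.76, 30.4 ± 1.35, 39.6 ± 10.9 and 64.4 ± 14.1 CPM in that order (SD, n = 3 each). Libraries of days 2 and 3 overlapped each other, and all libraries from day 7 on lay above them. Sums are described here and not tested.

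At day 3, 1 of the 12 kept regions of Myh6 was higher than in fibroblasts and 0 were lower by edgeR's quasi-likelihood test, the one near the start described above (1 of 12 at an unadjusted p under 0.05, and 4 of the whole window in both edgeR and DESeq2). Of all kept regions, 13.2% were higher and 8.84% lower in that comparison. At day 7, 7 of the 12 were higher and 0 lower, against 15.5% and 12.0% of all regions. Of the 7, those at 55568703, 55571939, 55575169, 55576236 and 55580793 averaged 0.534, 0.713, 0.489, 0.414 and 0.211 CPM in fibroblasts. They cannot have passed the low-count filter on the fibroblast libraries alone, so the direction of their calls was largely set by it. Without fibroblast replicate 1 the 7 became 4, those at 55575169, 55576236 and 55578284 being lost (edgeR adjusted p 0.285, 0.0528 and 0.0791). At day 14, 8 of the 12 were higher and 0 lower, against 12.8% and 9.70%. Over the 12, median log2 fold changes at days 3, 7 and 14 came to 0.37, 1.5 and 2.03, where the medians over all kept regions were -0.01, 0.01 and 0.07. With library totals in place of trimmed means the balance over all regions shifts, to 30162 higher of 34089 called at day 3, against 19104 of 31908, to 25859 of 33944 at day 7, against 22511 of 39820, and to 30923 of 36234 at day 14, against 18579 of 32626. The medians over all regions were then 0.51, 0.30 and 0.58. Library totals include 1 region that held 49.4, 49.3 and 14.5% of the counts in fibroblast replicates 1, 2 and 3. In GMT libraries it held 4.52 to 35.4%, so totals are not an even measure of depth over the other regions. Its part in the shift was not tested. In the whole window, 4 regions were higher at day 3, 13 at day 7 and 15 at day 14, and 0, 1 and 1 were lower. The 3 comparisons share the fibroblast libraries. The 12 kept regions not called at day 14 were called in no other comparison either. Among them, chr14:55570568-55571862 in Myh6 had 1.76 ± 0.764 CPM at day 7 and 1.69 ± 0.860 CPM at day 14, against 0.839 ± 0.279 CPM in fibroblasts (SD, n = 3 each; edgeR adjusted p 0.107 at day 7).

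At chr14:55571939-55574039, 11.8 kb into the gene, a region had 1.19, 0.231 and 0.721 CPM in fibroblasts, and 0.640, 0.770 and 1.02 CPM at day 2, 1.05, 2.14 and 1.04 CPM at day 3, 4.03, 5.14 and 3.28 CPM at day 7, 3.37, 5.87 and 3.80 CPM at day 14, and 6.13, 8.31 and 9.93 CPM at day 21. The day 2 and fibroblast libraries overlapped, and those of days 7, 14 and 21 were all above them. Its log2 fold change over fibroblasts was 2.27 at day 7 (SE 0.43, edgeR adjusted p 2.86e-05) and 2.32 at day 14 (SE 0.44, edgeR adjusted p 3.69e-05). At its fibroblast level it can have passed the low-count filter only through GMT libraries. The direction of these calls was therefore set by the filter.

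The widest region of the body, chr14:55564386-55568629, had 4.10, 3.70 and 4.68 CPM in fibroblasts, and 3.20, 4.93 and 3.46 CPM at day 2, 3.16, 4.72 and 4.51 CPM at day 3, 8.91, 9.94 and 8.45 CPM at day 7, 11.7, 14.8 and 8.08 CPM at day 14, and 13.2, 20.2 and 22.2 CPM at day 21. Fibroblast, day 2 and day 3 libraries thus covered the same range, and all later libraries were above it. Its log2 fold change over fibroblasts was 1.14 at day 7 (SE 0.31, edgeR adjusted p 0.00302) and 1.5 at day 14 (SE 0.31, edgeR adjusted p 0.000127).

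The region at chr14:55578284-55580442, 5.36 kb into the gene, had 2.10, 2.08 and 2.52 CPM in fibroblasts, and 1.60, 1.77 and 1.02 CPM at day 2, 0.527, 1.39 and 2.09 CPM at day 3, 5.22, 5.02 and 4.18 CPM at day 7, 7.87, 8.04 and 6.18 CPM at day 14, and 10.3, 8.16 and 14.1 CPM at day 21. Day 3 over fibroblasts gave a log2 fold change of -0.44 (edgeR adjusted p 0.459), day 7 gave 1.14 (SE 0.35, edgeR adjusted p 0.00931) and day 14 gave 1.77 (SE 0.34, edgeR adjusted p 5.52e-05). Libraries of days 2 and 3 lay between 0.527 and 2.09 CPM, the highest of them just within the fibroblast range, and all later libraries were above that range.

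The small region at chr14:55577574-55577845 had no count in any fibroblast library. It held 3, 11 and 6 counts at day 14, a mean of 1.11 CPM, which is at least 6.67-fold higher than 3 counts over the fibroblast group would give. It is among the 8 regions called at day 14, but it can have passed the filter only through libraries of days 14 and 21, so the direction of that call was set by the filter. The call was lost without fibroblast replicate 1.

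**Figure D3:**
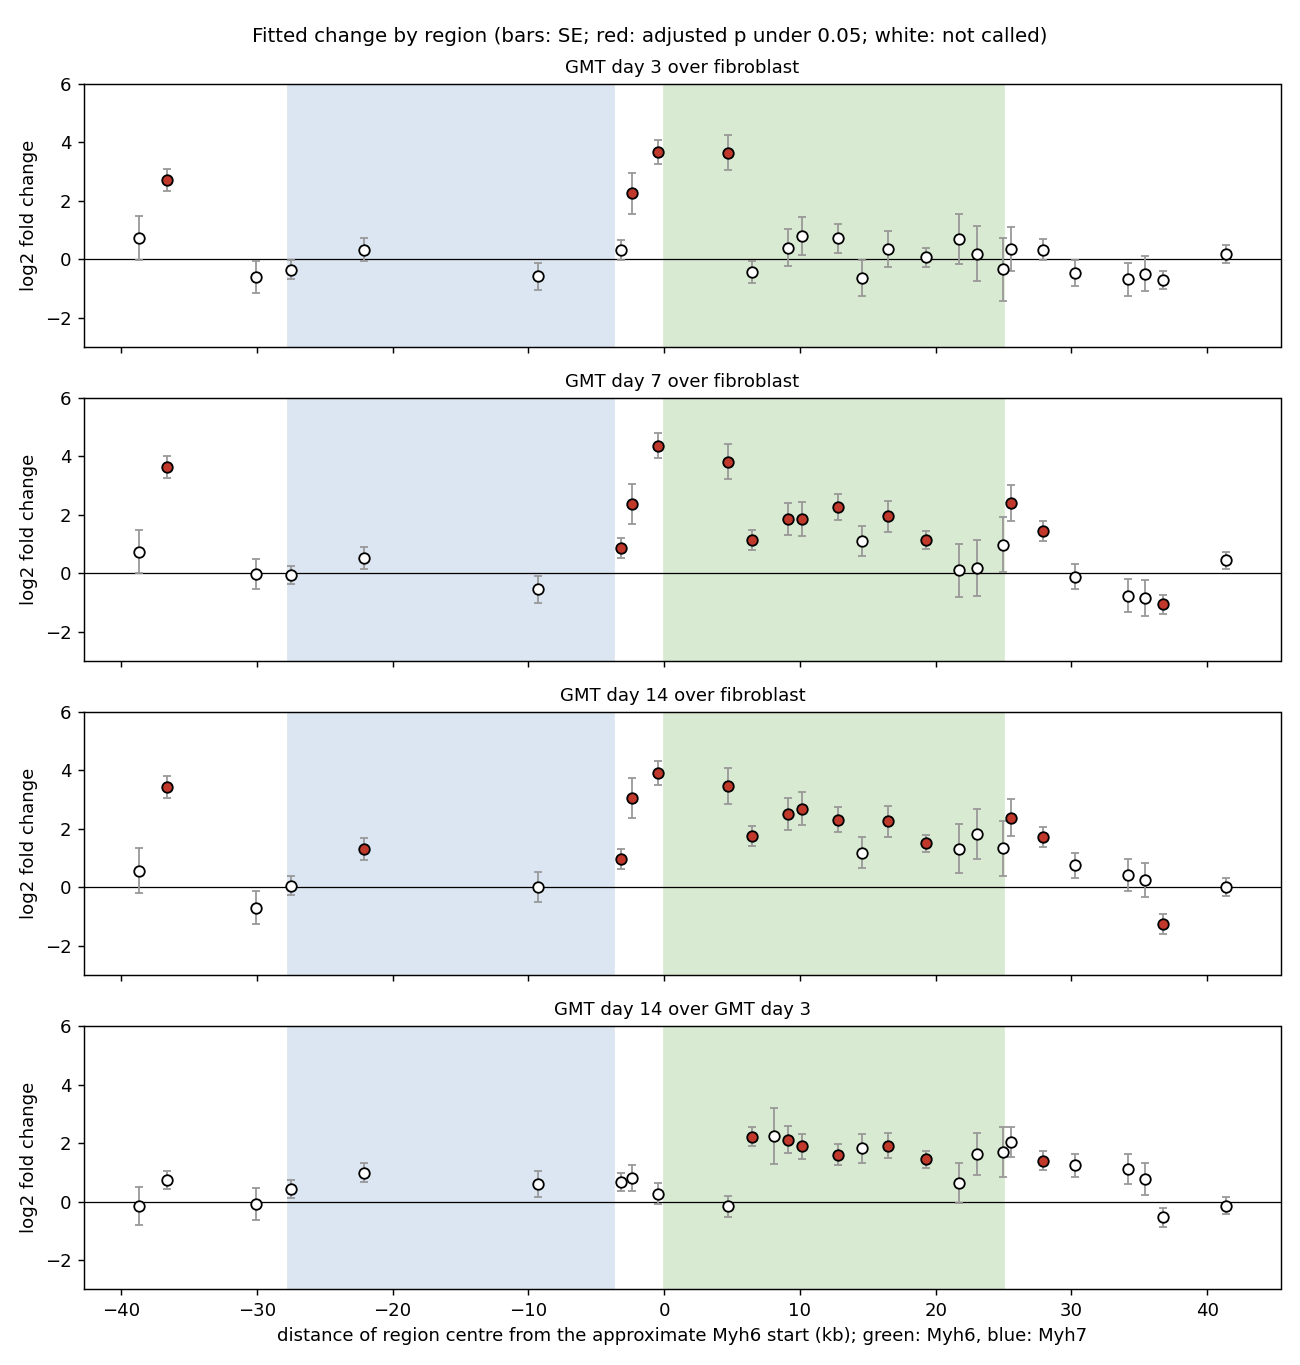
Fitted log2 fold change of each kept region (point, with its SE) by distance of its centre from the approximate Myh6 start, for GMT days 3, 7 and 14 over fibroblast and for GMT day 14 over GMT day 3. Red points passed an adjusted p of 0.05. At day 3 the red points are at the Myh6 start and beyond Myh7, at days 7 and 14 they run through the green Myh6 body, and day 14 over day 3 leaves the start white with 7 red points in and just past the body. The region without fibroblast counts is left out of the first 3 panels.

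The later opening was also tested between GMT groups, in the fit of all 18 libraries. From day 3 to day 14, 7 of the 28 kept regions of the window rose and 0 fell, where 0.100% of all kept regions rose and 0.198% fell. The window was chosen for a rise from day 2 to day 21, which spans these days, and both regions behind that choice are among the 7. The contrast with all kept regions is therefore not independent of the choice. Of the 7, 6 lie in Myh6 and 1 just past its end. Those at 55568703, 55575169 and 55576236 averaged 0.685, 0.737 and 0.716 CPM at day 3. They can have passed the low-count filter largely through later groups, so the direction of their calls was partly set by it. The region at 55578284 rose most, to 7.36 ± 1.03 CPM at day 14 against 1.34 ± 0.782 CPM at day 3 (SD, n = 3 each; log2 fold change 2.21, SE 0.32, edgeR adjusted p 4.05e-05). Next came chr14:55576236-55577144, which reached 2.38, 3.71 and 2.61 CPM at day 14, against 0.527, 1.29 and 0.334 CPM at day 3 (log2 fold change 2.12, SE 0.45, edgeR adjusted p 0.0169).

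Its neighbour at chr14:55575169-55576060 reached 2.05, 3.55 and 2.61 CPM at day 14, against 0.791, 0.751 and 0.669 CPM at day 3 (log2 fold change 1.88, SE 0.44, edgeR adjusted p 0.0353). At chr14:55568703-55569958 the libraries had 2.25, 4.48 and 1.19 CPM at day 14, against 0.791, 0.429 and 0.836 CPM at day 3 (log2 fold change 1.91, SE 0.43, edgeR adjusted p 0.0286). The regions at 55571939 and 55564386 had log2 fold changes of 1.61 and 1.44 (SE 0.37 and 0.29, edgeR adjusted p 0.0280 and 0.00880). In all 7 regions each day 14 library was above each day 3 library, which follows largely from their having been called in this comparison. Regions of the window that were not called, such as those at 55555113 and 55611691, were separated in the same way. The share of such regions over the whole genome was not taken.

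These calls rest on few libraries. With the day 3 and day 14 libraries fitted alone, 1 of the 7 was called, at 55578284, and the others had edgeR adjusted p from 0.0832 to 0.169. The count of 7 became 4 without day 3 replicate 2, and 1 without day 3 replicate 3, without day 14 replicate 1 or without day 14 replicate 2. The region at 55578284 passed the test without each of the 18 libraries in turn (edgeR adjusted p up to 0.00241), though not without the filter on low counts (0.399), where no region of the window was called. From day 3 to day 7, and from day 7 to day 14, 0 of the 28 regions passed edgeR's test, with 10 and 7 of them at an unadjusted p under 0.05, and DESeq2 also called 0 in each. Of all kept regions 0.00138% were higher and 0.00691% lower in the first of these steps (0.00829% in either direction), and 0% were called in the second.

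Past the low end of Myh6, a pair of regions were higher from day 7 on, while the region over that end, at 55560623, passed the test in no comparison. The region at chr14:55556085-55559745, toward Cmtm5 in the gene order, had 6.93, 7.17 and 4.68 CPM in fibroblasts, and 4.80, 11.3 and 5.91 CPM at day 2, 5.54, 8.36 and 9.48 CPM at day 3, 19.3, 17.6 and 15.4 CPM at day 7, 19.3, 31.1 and 12.8 CPM at day 14, and 24.0, 32.5 and 53.3 CPM at day 21. Libraries up to day 3 overlapped, and later ones were higher. Its log2 fold change over fibroblasts was 1.44 at day 7 (SE 0.34, edgeR adjusted p 0.000718) and 1.72 at day 14 (SE 0.34, edgeR adjusted p 8.06e-05), and from day 3 to day 14 it rose by 1.39 on the log2 scale (SE 0.32, edgeR adjusted p 0.0329). Between it and Myh6, chr14:55559944-55560537 had 1.75 ± 0.444 CPM at day 7 and 1.64 ± 0.612 CPM at day 14, against 0.276 ± 0.244 CPM in fibroblasts (SD, n = 3 each; log2 fold changes 2.40 and 2.38, SE 0.62 and 0.63, edgeR adjusted p 0.00201 and 0.00331). Its fibroblast level rests on 4, 2 and 0 counts, so it can have passed the low-count filter only through GMT libraries, which set the direction of its calls. Farther out, the region at chr14:55548504-55549601 went the other way. It fell to 4.04 ± 1.00 CPM at day 7 and 3.90 ± 1.54 CPM at day 14, against 9.08 ± 3.68 CPM in fibroblasts (SD, n = 3 each; log2 fold changes -1.07 and -1.25, SE 0.31 and 0.33, edgeR adjusted p 0.00702 and 0.00333). It was the only region of the window called lower in these comparisons. Both calls were lost without fibroblast replicate 3, which had 13.3 CPM against 6.75 and 7.17 CPM in replicates 1 and 2, and also with library totals and without the filter. The day 14 call was lost without day 14 replicate 1 too.

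In Myh7 few regions could be tested. Summed over its 18 regions, it held 12.4, 15 and 9.37 CPM in fibroblasts, and 7.36, 11.1 and 7.13 CPM at day 2, 5.80, 11.6 and 9.82 CPM at day 3, 12.7, 10.8 and 10.1 CPM at day 7, 15.6, 15.9 and 13.1 CPM at day 14, and 15.6, 18 and 18.8 CPM at day 21. The day 21 libraries were above all fibroblast libraries, and the other GMT groups overlapped the fibroblasts. Of all kept regions, 13.2%, 15.5% and 12.8% were higher at days 3, 7 and 14, and 8.84%, 12.0% and 9.70% were lower. With 3 kept regions, Myh7 cannot be told apart from those shares. Of the 3 kept regions of Myh7, 0 were called at day 3 or day 7 by edgeR (0 also at an unadjusted p under 0.05) and 1 was higher at day 14.

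That one, chr14:55605942-55609838 in the body, had 5.75, 5.56 and 2.85 CPM at day 14, against 1.92, 3.01 and 0.721 CPM in fibroblasts (log2 fold change 1.31, SE 0.37, edgeR adjusted p 0.00591). The ranges overlapped, since day 14 replicate 3 was below fibroblast replicate 2. The call was lost without fibroblast replicate 1 and without day 14 replicate 1 (edgeR adjusted p 0.0564 and 0.0580). The region over the Myh7 start, chr14:55611691-55614835, had 2.11, 4.72 and 3.64 CPM at day 3, 5.41, 3.65 and 4.28 CPM at day 7 and 4.76, 5.10 and 4.99 CPM at day 14, against 4.65, 6.25 and 2.88 CPM in fibroblasts. All 3 GMT groups overlapped the fibroblasts. Its log2 fold changes over fibroblasts were -0.36, -0.07 and 0.06 at days 3, 7 and 14 (SE 0.32, 0.31 and 0.32, edgeR adjusted p 0.463, 0.893 and 0.922). The region at chr14:55594221-55595932, toward the end of Myh7, lay between 0.360 and 2.16 CPM in all 18 libraries.

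**Figure D4:**
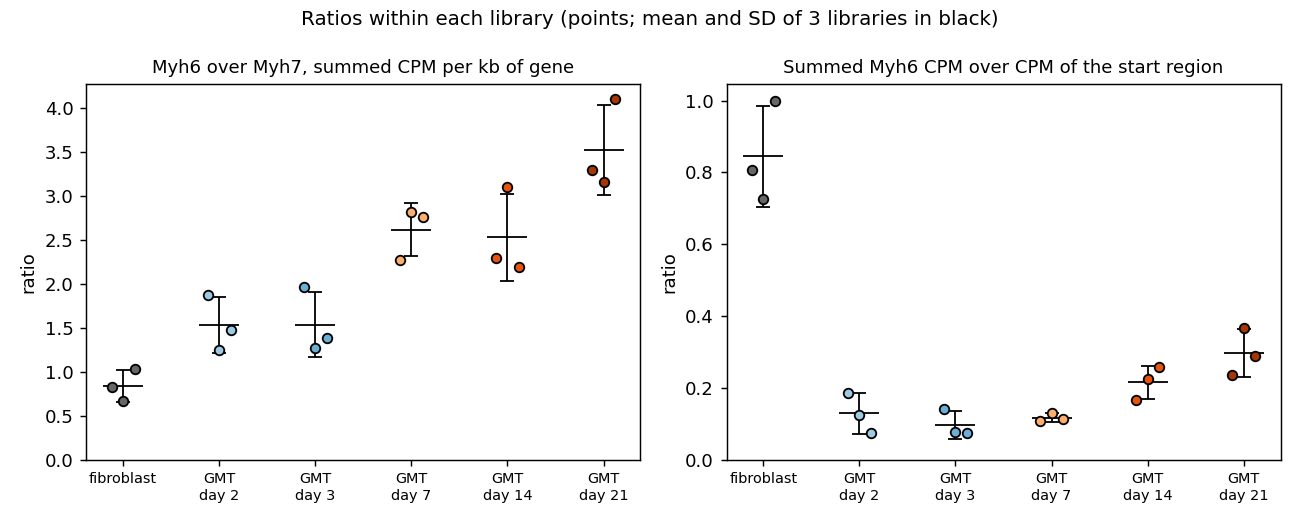
Ratios within each library (points) with the mean and SD of 3 libraries in black, for fibroblasts and GMT days 2 to 21. Left, Myh6 over Myh7 in summed CPM per kb of gene, 0.841 in fibroblasts and 3.52 at day 21. The Myh6 sum leaves out the region over its start, and the Myh7 sum holds its own. Right, summed Myh6 over the region at its start, 0.844 in fibroblasts, 0.0973 at day 3 and 0.297 at day 21.

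Per kb of gene, the sums in fibroblasts were 0.416 ± 0.0117 CPM per kb for Myh6 and 0.511 ± 0.118 CPM per kb for Myh7 (SD, n = 3 each). At day 21 they were 2.58 ± 0.563 and 0.727 ± 0.0687 CPM per kb. By its midpoint the region over the Myh6 start belongs to the interval, so the Myh6 sum leaves it out. The Myh7 sum holds the region over its own start. In fibroblasts these start regions averaged 12.6 and 4.59 CPM. The sums and their ratio thus do not compare like parts of the genes. Taken within each library, the ratio of Myh6 to Myh7 was 0.841 ± 0.185 in fibroblasts, 1.54 ± 0.319 at day 2, 1.54 ± 0.372 at day 3, 2.62 ± 0.303 at day 7, 2.53 ± 0.496 at day 14 and 3.52 ± 0.512 at day 21. Ratios at days 2 and 3 overlapped, as did those at days 7 and 14. The ratio of the Myh6 sum to the region over its start came to 0.844 ± 0.141 in fibroblasts, 0.129 ± 0.0560 at day 2, 0.0973 ± 0.0383 at day 3, 0.117 ± 0.0123 at day 7, 0.216 ± 0.0463 at day 14 and 0.297 ± 0.0671 at day 21. All 6 libraries of days 14 and 21 were above all 3 of day 7 in it, while the difference between start and body in timing was not tested as such. The start region alone held 15.7 ± 2.56% of the window's CPM in fibroblasts and between 52.1 and 65.2% on average in the GMT groups.

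Likeness to regions elsewhere was measured over the 18 libraries by the Pearson correlation of log2 CPM, among 61026 kept regions outside the window whose average log2 CPM was 1 or more. By the rule set for it, the comparison starts from the region with the largest fitted rise from day 2 to day 21, chr14:55563977-55564245, which held 1, 0 and 0 counts at day 2 and 11, 10 and 35 at day 21. Its closest match was on chromosome 15 at 5726734 to 5729060 (r = 0.835), followed by chromosome 1 at 168208592 to 168209455 (r = 0.834). Since that region is sparse, the comparison was repeated after its values were seen for better covered ones. The region at 55571939 was closest to chromosome 15 at 73834018 to 73835667 (r = 0.956), which had 1.49 CPM in fibroblasts, 2.14 at day 2 and 6.98 at day 21. The region over the Myh6 start was closest to chromosome 11 at 107592034 to 107593654 (r = 0.991), with 3.58, 17.2 and 21.5 CPM in these groups. The points share depth and the contrast of GMT cells with fibroblasts, and no gene is named for these regions.

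At the edges of the window, the region just inside the low edge, chr14:55542578-55546232, stood at 13.9 to 18.9 CPM on average in all 6 groups, and the one just outside it, at 55542098, at 0.115 to 0.426 CPM. At the high edge the region just inside, at 55624329, averaged 0.380 to 0.987 CPM, and the one just outside, at 55625960, 0.0220 to 0.209 CPM.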

How the data were processed

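ATAC-seq libraries of neonatal mouse heart cells were analysed from 1 table of deposited counts, whole numbers per region that the authors made from their reads; Bowtie2, Picard, MACS2, edgeR and build mm9 are named in the submitters' processing notes, with no versions. For peak calling settings and any shift of cut sites, the sources used here give nothing. Of 36 labelled samples, 18 had a column and the other 18 were not analysed here. Groups come from the sample titles. Sequencing took place at 2 cores per the labels, and the core of each library is not stated.

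All 18 libraries (2293128 to 23217308 counts) were fitted together, 1 mean per group, in edgeR 4.0.16 under R 4.3.3 (TMM scaling, robust quasi-likelihood test). Regions with low counts were removed by edgeR's default filter (minimum count 10, minimum total 15), which kept 144810 of 1393120. Adjusted p-values are Benjamini-Hochberg over all kept regions, called under 0.05. CPM were computed from the counts with TMM library sizes. Standard errors are the log2 fold change over the root of the F statistic, and no interval from counts alone is given, since PCR reads are not independent molecules. Tested on simulated data, the day 7 over fibroblast comparison recovered 68% of 4-fold and 10% of 2-fold changes among 144810 regions. The simulation changed 50 regions at each fold, far fewer than the 39820 called in the data. Its adjusted p threshold was thus harder to pass, and these shares do not give the power of the reported test.

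Alternatives were DESeq2 1.42.0, relative log expression size factors, library totals, no filter, a replicate block, each comparison's groups alone, a threshold of 0.01 and left-out libraries. Summing fibroblast replicates 1 and 2 was added after seeing the data. The locus, its regions, the motifs and the named regions (the start regions, the interval, the kept Myh7 regions, the region of largest rise and those called within GMT cells) were chosen with earlier results of these data known. The region at 55580793, the pair at 55577574 and 55548504 and the region beyond Myh7 are described because of their values. Sequences are RefSeq, GRCm38.p6.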

Additional observations from a re-analysis of the deposited data

Results flagged for a closer look

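The change against the shared fibroblast libraries differed between day 14 and day 3, by the test of day 14 over day 3 itself, in 7 regions. On the log2 scale the difference was 2.21 at 55578284, 2.12 at 55576236, 1.91 at 55568703, 1.88 at 55575169, 1.61 at 55571939 and 1.44 at 55564386, all in Myh6, and 1.39 at 55556085 just past its end. Regions low at day 3 can have passed the low-count filter through later groups, and without the filter 0 regions of the window were called. Each of the 7 was higher at day 14 in 3 of 3 libraries against all 3 of day 3, which follows largely from the call itself. With these groups fitted alone, the one at 55578284 was called and the other 6 were not.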

How the results depend on the processing

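No named region reversed its direction under an alternative where its change was called. The count of 7 regions called between day 14 and day 3 became 2 at a threshold of 0.01, 1 with library totals, 1 with these groups fitted alone, 5 with DESeq2 and 0 without the filter, and ranged from 1 to 8 with each library left out. The count of 0 between day 7 and day 3 became 1 without day 2 replicate 1 (range 0 to 1). Over fibroblasts, counts in either direction ranged with left-out libraries from 3 to 4 at day 3, from 10 to 14 at day 7 and from 13 to 17 at day 14. With the fibroblast replicates 1 and 2 summed they were 4, 13 and 15. The causes were not tested. Log2 ratios of summed levels of day 7 over fibroblast moved in Myh6, to 1.48 with relative log expression factors and 1.68 with library totals, against 1.55. They moved in the interval, to 4.20 with library totals and 2.81 with regions wholly inside it, against 4.02, and beyond Myh7, to 3.20 with kept regions only, against 2.93. For day 21 over day 2, regions wholly inside gave 1.63 below Myh6, against 1.06, and 2.13 in the interval, against 0.98. Of the interval, the setting leaves the region at 55588024 alone, 240 bases wide with 1, 10 and 0 counts at day 2, since the other 2 regions cross its limits.

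Replicate numbers did not pair the samples across all groups. Of 45 pairs of same-numbered libraries, 2 had a correlation of deviations over 0.1 (range -0.16 to 0.32), against 6 of 90 pairs with different numbers. The highest, 0.32, was that of day 2 replicate 1 with day 3 replicate 1, the libraries apart on the second component. Of 18 libraries, 4 correlated best with their own number. With a replicate block the counts were 4, 13 and 16 over fibroblasts at days 3, 7 and 14, and 7, 0 and 0 for day 14 over day 3, day 7 over day 3 and day 14 over day 7. Libraries as shallow as 2293128 counts limit what can be said of regions with few counts.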
